A study of Mus musculus with 2 samples.

Results

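Binding of the histone demethylase LSD1 (gene Kdm1a) was described at 37 autophagy genes in mouse primary brown adipocytes, the fat cells that burn lipid to make heat. The 37 genes are a list of autophagy components given by name, out of 21853 protein-coding genes with an annotated protein-coding start. Each gene was read for LSD1 peaks over its promoter, which here means the 1 kb on either side of each protein-coding transcript start, and for peaks from 10 kb upstream of the gene to its end. Peak calls came from 1 chromatin immunoprecipitation with an LSD1 antibody of the submitters' own laboratory, and the labels also list 1 input DNA library made without antibody, which is not used here. Both libraries came from cells of C57BL/6 N background, labelled as control genotype and passaged 2 to 3 times. They were kept in 20% fetal bovine serum and fixed for 5 min at day 10 of differentiation. The inducing mixture held isobutylmethylxanthine (500 µM), T3 (1 nM), indomethacin (125 nM), the PPARγ agonist rosiglitazone (1 µM), the glucocorticoid dexamethasone (1 µM) and insulin (850 nM). No replicates exist and the list carries no read counts. Depth is therefore unknown, and no test was made. Intervals beside shares are Wilson 95% intervals and reflect counting error alone. The list gives binding and no expression, so the labelled cell type could not be set against the levels of its marker genes.

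Autophagy wraps cytoplasm in a double membrane, the autophagosome, and delivers it to the lysosome for breakdown. The ULK1 kinase complex starts the process, the class III phosphatidylinositol 3-kinase complexes and ATG9 vesicles build the membrane, conjugation enzymes attach ATG8 proteins to it, and cargo receptors tether what is to be degraded. In brown and beige fat, autophagy of mitochondria (mitophagy) is one of the ways in which heat-producing mitochondria are removed when the tissue is no longer stimulated. LSD1 takes methyl groups off histone H3 and usually acts within complexes that also hold a CoREST protein and histone deacetylases.

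Nearly all autophagy genes carried LSD1 at a promoter. A promoter peak was present at 34 of the 37, a share of 91.9% (interval 78.7 to 97.2%), against 55.8% of all protein-coding genes. All 37 have at least 1 CpG-rich promoter, defined as an observed over expected CpG ratio of at least 0.6 in 1 kb around a start, and 86.1% of the 11238 protein-coding genes with such a promoter had a promoter peak. That share lies inside the interval of the autophagy genes. From 10 kb upstream to the gene end, 35 of the 37 had a peak (94.6%, interval 82.3 to 98.5%), against 93.3% of CpG-rich genes and 69.8% of all genes. The bar chart of shares shows the autophagy genes near the CpG-rich genes and above all genes in both of these measures.

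The score that the authors gave each peak was spread widely over the pathway. The sources used here do not give the scale of this score, so it served only as a description and for ranking within this list, whose 59175 peaks had a median score of 111. The highest promoter score of the 34 occupied autophagy genes had a median of 455 (quartiles 210.0 and 592, range 60.9 to 1345), beside 359.6 for the occupied CpG-rich genes and 315 for all occupied genes. A promoter peak in the highest-scoring 10% of the list (a score of at least 391) was present at 19 of the 37 genes, 51.4% with an interval of 35.9 to 66.6%, against 39.8% of CpG-rich genes and 22.8% of all genes. The CpG-rich share again lies inside the interval of the autophagy genes. Ulk1, at 411, was the lowest gene inside this 10%, and Atg9a, at 329, the highest outside it.

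**Figure D1:**
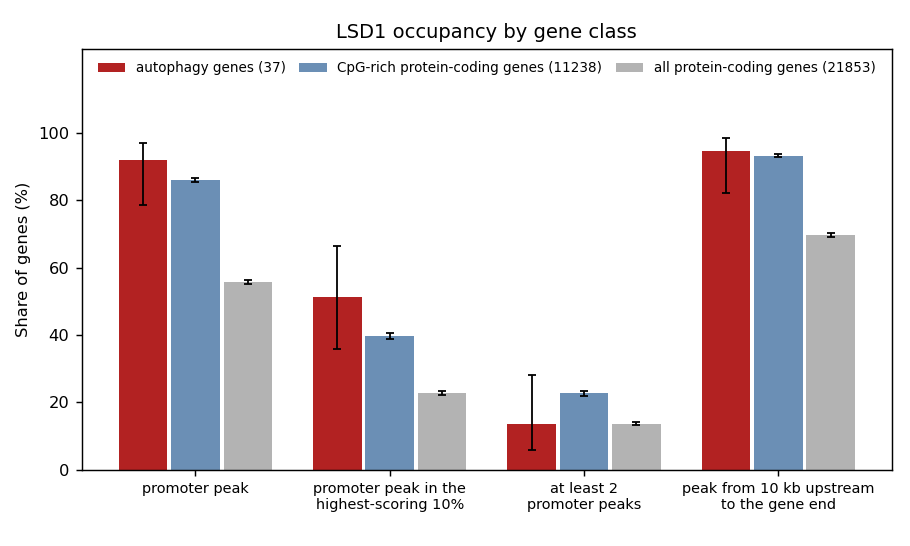
Share of genes in percent with an LSD1 promoter peak, with one in the highest-scoring 10% of peaks, with at least 2 promoter peaks, and with a peak from 10 kb upstream to the gene end, for the 37 autophagy genes, the 11238 CpG-rich genes and all 21853 genes; error bars are Wilson 95% intervals. The autophagy bars for a promoter peak (91.9%) and for the wider window (94.6%) stand close to the CpG-rich bars (86.1% and 93.3%) and well above those of all genes (55.8% and 69.8%).

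The genes that start autophagy were mostly well occupied. Ulk2, a serine/threonine kinase that acts beside ULK1, had a promoter peak with a score of 633. Rb1cc1, which encodes the scaffold FIP200, had a peak of 599 that lay 8677 bp inside the gene from its 5′ end, 134 bp upstream of the nearest of its 7 protein-coding starts, and a second promoter peak of 76.8. Ulk1, the kinase that nutrient sensors switch on and off, scored 411, and Atg101, which stabilises ATG13, scored 222. Atg13, the adaptor that holds the complex together, had no promoter peak. The 4 occupied genes of the complex had a median score of 505, above the median of all occupied genes.

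The class III phosphatidylinositol 3-kinase genes were uneven, with a peak at all 5 promoters and a median of 133. Uvrag, a subunit of the form of the complex that serves endosomes and autophagosome maturation, had the top value at 635. Becn1, the Beclin 1 scaffold shared by the forms of the complex, scored 290.5, and Pik3c3, the lipid kinase itself, scored 133. Atg14, the subunit that directs the kinase to autophagosome formation, scored 78.4. Pik3r4, the regulatory subunit that anchors the kinase, scored 60.9, the lowest promoter score among the members, and only 0.148% of all occupied genes scored lower. These 2 weakly occupied genes also have the lowest CpG ratios among the 37, 0.623 for Atg14 and 0.606 for Pik3r4. Ratio and score did not go together throughout the members. Atg4b, with the highest ratio (1.07), scored only 90.1, and Wipi1, with a ratio of 0.657, scored 786.

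Genes for membrane supply all had a promoter peak, with a median of 454. Wipi1, a reader of phosphatidylinositol 3-phosphate, led with 786, and Wipi2, the reader that recruits ATG16L1, scored 490.3. The lipid transfer protein gene Atg2a scored 454 and its paralogue Atg2b 213. The Atg2b peak did not cover an Atg2b start and lay 520 bp from the nearest one at its edge. Its midpoint was closer to a start of Gskip, which is transcribed the other way. Atg9a, the membrane protein of the vesicles that seed the autophagosome, scored 329 and had a second promoter peak of 78.1.

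Of the 6 conjugation genes, 4 were occupied. Atg10, the E2-like enzyme for ATG12, scored 529, and Atg3, the E2-like enzyme for ATG8 proteins, scored 456. The Atg3 peak is shared with Slc35a5, a gene on the opposite strand whose start lies 38 bp from the peak midpoint. Atg7, the E1-like enzyme that serves both conjugation reactions, scored 158 through a 618 bp peak whose near edge lay 774 bp from an internal start of the gene, and no peak lay within 1 kb of the 5′ end of Atg7. Atg5, which is joined to ATG12, scored 138. Atg12, the ubiquitin-like partner, and Atg16l1, which places the finished complex on the membrane, had no promoter peak.

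The proteases and the ATG8 proteins they process ranged from 90.1 to 569.6. Atg4d scored 569.6, Atg4c 235 and Atg4b 90.1, and the Atg4b peak covered no Atg4b start, with its edge 424 bp from one and its midpoint nearest to a start of Thap4 on the other strand. All 5 genes of ATG8 proteins, the small proteins that are joined to autophagosome lipids, were occupied. Both LC3 genes stood above the whole GABARAP subfamily: Map1lc3a scored 495 and Map1lc3b 456, whereas Gabarap scored 214, Gabarapl1 209 and Gabarapl2 117.

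The 4 highest scores belonged to the cargo receptor genes Nbr1 and Sqstm1, to Tfeb and to the mitophagy gene Park7. Nbr1, a receptor for ubiquitin-tagged cargo, had the top score of the members at 1345, and Sqstm1, which encodes the receptor p62, had 1055. That Sqstm1 peak covered no Sqstm1 start, and a separate peak over the start scored 124. Optn, the receptor optineurin, scored only 143, so the receptors did not share one level. The mitophagy genes among the members were more alike, with 865 at Park7 (the redox-sensitive protein DJ-1), 681 at Bnip3l (the outer membrane receptor NIX), 531 at Pink1 (the kinase that marks damaged mitochondria) and 521 at Bnip3 (a receptor related to NIX and induced in hypoxia). All 4 lay above the score of 391 at which the highest 10% of the list begins, as did 39.8% of CpG-rich genes and 22.8% of all genes. Park7 did so through a peak at an internal start, and its peak at the 5′ end scored 219.7. Tfeb, the transcription factor that drives lysosomal and autophagy genes, scored 1157 and had 5 promoter peaks along its 11 starts, the others scoring 163, 114, 103 and 91.5.

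**Figure D2:**
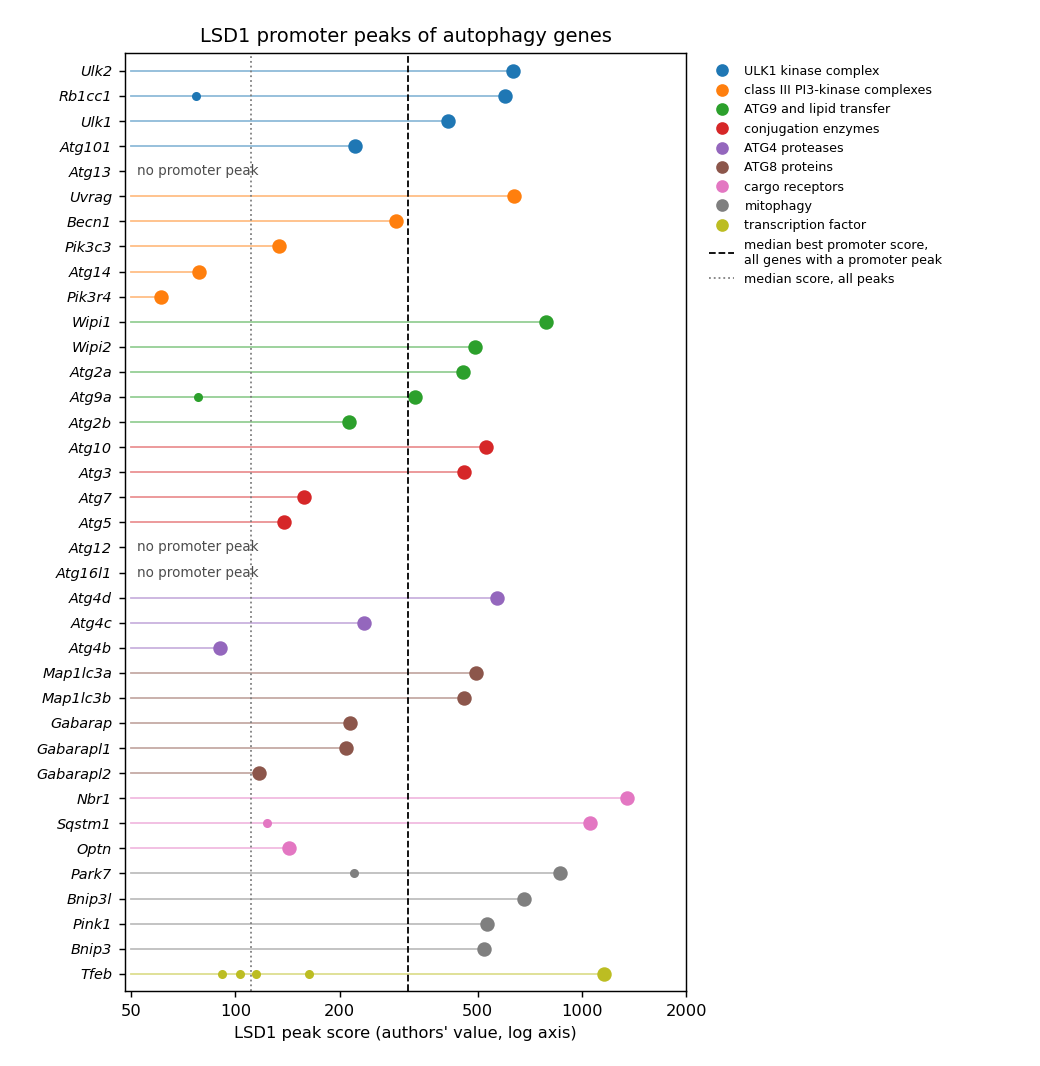
LSD1 promoter peaks of each autophagy gene, by role from top to bottom; the horizontal axis is the authors' peak score on a log scale, large points are the highest promoter peak, small points further promoter peaks, the dashed line the median highest promoter score of all occupied genes (315) and the dotted line the median of all peaks (111). Nbr1 (1345), Tfeb (1157) and Sqstm1 (1055) lie farthest to the right, Pik3r4 (60.9) farthest to the left, and Atg12, Atg13 and Atg16l1 have no point.

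The 10 highest-scoring promoter peaks were placed as follows in mm10. The Nbr1 peak spanned chr11:101551489-101553126 (1638 bp) with its midpoint 73 bp downstream of a start, and it also reached a start of another protein-coding gene on the opposite strand. The Tfeb peak was the widest of the members, chr17:47736395-47738978 (2584 bp), with its midpoint 86 bp downstream of a start. The Sqstm1 peak, chr11:50211693-50213767 (2075 bp), behaved otherwise. It covered no Sqstm1 start, its midpoint lay in an annotated intron at -1903 bp (upstream) from the nearest Sqstm1 start and 1840 bp from the nearest start of Mgat4b, and a separate peak over the Sqstm1 start itself, chr11:50210199-50211042, scored 124. The Park7 peak, chr4:150909351-150910381 (1031 bp), had its midpoint 4571 bp inside the gene from its 5′ end and 2 bp from an internal protein-coding start. The second Park7 peak, at the 5′ end, scored 219.7 and lay 132 bp from a start of Tnfrsf9.

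The other 6 of these peaks each covered 1 or 2 annotated starts of the gene. They were the Wipi1 peak (chr11:109610369-109612001), the Bnip3l peak (chr14:67007909-67009448), the Uvrag peak (chr7:99140271-99142062), the Ulk2 peak (chr11:61854117-61855511), the Rb1cc1 peak (chr1:6214126-6215623) and the Atg4d peak (chr9:21264868-21266486). Their midpoints lay within 384 bp of the nearest start. Across all 34 occupied genes, the highest-scoring promoter peak covered a start in 30, a count not made over all genes. Its midpoint lay within 500 bp of a start in 30 of the 34. The same held for 8235 of the 9677 occupied CpG-rich genes and 9975 of all 12199 occupied genes. Its median width was 1095.5 bp, beside 1084 bp for CpG-rich and 1027 bp for all occupied genes.

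Of the 4 top peaks, 3 had a stretch free of annotated untranslated bases, and their sequences are shown because their base composition differs although all score in the highest 10%. Each is the 200 bases of the peak nearest its midpoint (mm10), written 5′ to 3′ on the strand of the gene, with CpG pairs in capitals. The Tfeb stretch is chr17:47737400-47737599 on the plus strand, the Park7 stretch chr4:150909927-150910126 on the minus strand and the Sqstm1 stretch chr11:50212630-50212829 on the minus strand.
Tfeb: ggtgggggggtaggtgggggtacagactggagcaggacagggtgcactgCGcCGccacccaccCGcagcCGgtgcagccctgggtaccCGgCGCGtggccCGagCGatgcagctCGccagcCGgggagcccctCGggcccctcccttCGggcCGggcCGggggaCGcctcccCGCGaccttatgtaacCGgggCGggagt
Park7: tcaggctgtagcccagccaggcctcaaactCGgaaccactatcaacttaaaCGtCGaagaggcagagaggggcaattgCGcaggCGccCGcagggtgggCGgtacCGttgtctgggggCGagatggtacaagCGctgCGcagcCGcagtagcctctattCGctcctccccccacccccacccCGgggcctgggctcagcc
Sqstm1: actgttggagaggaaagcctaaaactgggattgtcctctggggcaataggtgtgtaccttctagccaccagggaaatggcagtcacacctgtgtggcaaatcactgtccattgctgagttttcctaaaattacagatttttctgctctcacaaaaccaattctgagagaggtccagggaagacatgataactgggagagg
The Tfeb stretch holds 20 CpG pairs and 76% G and C, the Park7 stretch 14 pairs and 65.5%, and the Sqstm1 stretch 0 pairs and 46.5%. In 200 bases around the midpoint, the highest promoter peaks of the 34 genes held a median of 15 CpG pairs (range 0 to 30), beside 13 (range 0 to 44) for all 14423 promoter peaks of the list.

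The 3 autophagy genes Atg12, Atg13 and Atg16l1 had no promoter peak although all have CpG-rich promoters, with ratios of 0.837, 0.872 and 1.01. The nearest peak edge lay 12221 bp from an Atg12 start, 19026 bp from an Atg13 start and 94504 bp from an Atg16l1 start. Among the occupied genes, the greatest such distance was the 774 bp of Atg7, so no member lay close outside the 1 kb limit. A CpG-rich gene with its nearest peak farther away than that of Atg16l1 was uncommon, at 1.90% of such genes, against 7.52% for the distance of Atg12 and 5.97% for that of Atg13. Atg13 had 1 intronic peak, chr2:91689329-91689920, with a score of 77.3, and the other 2 had none from 10 kb upstream to the gene end. Sequence that occurs more than once in the genome was measured as the share of 32-base words with another copy. It made up at most 9.54% of the 1 kb on either side of the 5′ end of any of these 3 genes. Further starts of Atg13 and Atg16l1 were not measured separately. With the depth unknown, weak binding at the promoters of these 3 genes cannot be told apart from none.

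The bases just upstream of the starts are shown for Atg13 and Atg16l1, as examples of autophagy promoters without an LSD1 peak. Both stretches end at the base before the 5′-most start (mm10, gene strand, CpG pairs in capitals), Atg13 at chr2:91710577-91710776 on the minus strand and Atg16l1 at chr1:87755670-87755869 on the plus strand.
Atg13: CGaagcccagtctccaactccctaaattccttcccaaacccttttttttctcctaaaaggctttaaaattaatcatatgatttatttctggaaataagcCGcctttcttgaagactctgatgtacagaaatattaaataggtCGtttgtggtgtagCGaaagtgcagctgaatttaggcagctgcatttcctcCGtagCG
Atg16l1: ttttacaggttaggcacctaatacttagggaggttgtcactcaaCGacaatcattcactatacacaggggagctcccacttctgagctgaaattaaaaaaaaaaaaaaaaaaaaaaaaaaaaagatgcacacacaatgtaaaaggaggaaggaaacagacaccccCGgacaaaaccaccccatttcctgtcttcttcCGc
The Atg13 stretch holds 6 CpG pairs and the Atg16l1 stretch 3, each with 40% G and C. These upstream stretches do not give the composition of the whole promoters. In 1 kb around the start with the highest CpG ratio, G and C made up 56.6% at Atg13 (ratio 0.872) and 58.6% at Atg16l1 (ratio 1.01).

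**Figure D3:**
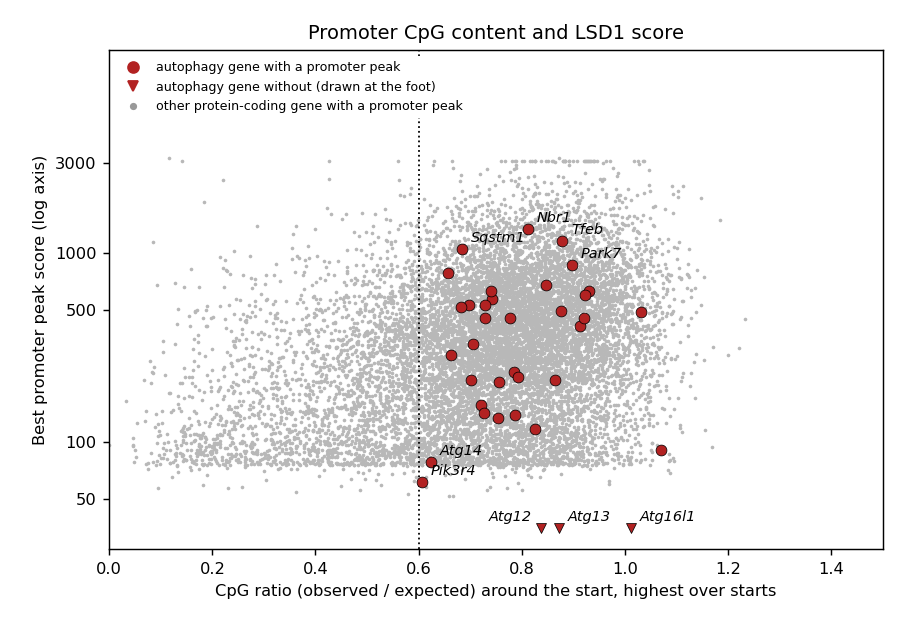
Highest CpG ratio (observed over expected, horizontal axis) over the starts of each gene against its highest LSD1 promoter score (vertical log axis), with autophagy genes in red, the other occupied protein-coding genes in grey, and a dotted line at the ratio of 0.6. The autophagy genes lie right of the line and run from Pik3r4 (60.9) to Nbr1 (1345), below the top of the grey cloud, and the 3 genes without a peak, drawn as triangles at the foot, have ratios of 0.837 to 1.01.

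CpG content and the number of starts both went with occupancy across the genome. The autophagy genes were more CpG-rich than all genes (median ratio 0.785, against 0.614) and had the same median of 2 starts. Over deciles of all genes by CpG ratio, the share with a promoter peak ran from 3.48% in the lowest decile to 93.4% in the highest, and all 37 autophagy genes lay in decile 5 or above. Those without a peak came from the top of this scale, with Atg12 and Atg13 in a decile where 89.8% of genes were occupied and Atg16l1 in one where 93.4% were. Among genes with 1 start, 9 of 10 autophagy genes were occupied, against 44.1% of all genes. With 2 to 3 starts the values were 14 of 15 and 55.4%, and with 4 or more they were 11 of 12 and 78.5%. These shares of all genes are not matched for CpG content. All 37 members are CpG-rich, and 86.1% of CpG-rich genes were occupied over all numbers of starts together. More than 1 promoter peak was found at 5 of the 37 (Tfeb, Rb1cc1, Atg9a, Sqstm1 and Park7), a share of 13.5% (interval 5.91 to 28.0%), against 22.7% of CpG-rich and 13.6% of all genes.

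Some of these peaks belong to more than 1 gene. At 6 of the 34 occupied genes the highest promoter peak also overlapped the promoter of a neighbour, each time on the opposite strand. The same share was not counted over all genes, so this count does not show whether such sharing is unusual. The pairs were Atg2b with Gskip, Atg3 with Slc35a5, Atg4b with Thap4, Atg9a with Ankzf1, Sqstm1 with Mgat4b, and Nbr1 with the gene that faces it. A peak over such a region cannot be given to one gene. When each peak counted only for the nearest start, Atg2b, Atg3 and Atg4b lost their promoter peak and 31 genes kept one. Sqstm1 kept only its peak of 124, because the nearest start to its peak of 1055 was that of Mgat4b.

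Beyond their promoters the autophagy genes held lower peaks than over them. The windows from 10 kb upstream to the gene end contained 116 peaks, of which 42 overlapped a promoter of the gene (median score 263) and 74 did not (median 96.3), and 44 of the 74 (59.5%) scored below the median of the whole list. Over all protein-coding genes the same share was 55.1%, with a median score of 105. In 6 of the 35 genes with any peak, the highest one lay outside their own promoters, a share of 17.1% (interval 8.10 to 32.7%) against 35.8% of all genes with a peak. A gene with a peak in the window and none over a promoter counts here by definition. Among the members this was Atg13 alone. Such genes are more frequent among all genes, of which 69.8% had a peak in the window and 55.8% a promoter peak. The share was not counted among CpG-rich genes or among genes with a promoter peak, so 17.1% and 35.8% are not matched for occupancy. The greatest of the 6 peaks scored 1635 and spanned chr11:69994319-69996035, past the end of Gabarap and 600 bp from a start of the neighbouring gene Phf23. Similar peaks at the starts of neighbours lay in the windows of Atg2a (869.9 at Ppp2r5b) and Gabarapl2 (363 at Tmem231). Closer to the members themselves, Ulk1 and Wipi1 each had an intronic peak a short way downstream of the start, 218 at 1541 bp and 217 at 2859 bp. Bnip3 had an intergenic peak of 256.2 at 9866 bp upstream.

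Atg7 had 17 peaks in its window, more than any other member. It was one of the 6 genes whose highest peak lay outside their own promoters. This peak lay in an intron, chr6:114780298-114782444 (2147 bp), with a score of 719.9 and a midpoint 123307 bp from the nearest Atg7 start. A second intronic peak scored 410.2, and both exceeded the 158 of the promoter peak. Inside the gene lay 15 peaks away from its promoters, or 6.90 per 100 kb, and 91.4% of the 4986 protein-coding genes of at least 50 kb had fewer per length. Uvrag, of similar size, had 11 such peaks (4.29 per 100 kb), the highest scoring 416 and 343. Atg10, the longest member at 289 kb, had 5 (1.73 per 100 kb), whereas Ulk2 and Atg2b had none. The 10 autophagy genes of at least 50 kb had a median of 1.91 per 100 kb, beside 1.69 for all genes of that length.

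Sequence with other copies in the genome touched few of these peaks. No promoter peak of a member had more than 6.94% of its 32-base words elsewhere in the genome, whereas 8 of the 74 other peaks had more than 10%. The extreme was a peak of 210.1 upstream of Pik3c3, with 70.6%. The part of such sequence in these scores was not tested.

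**Figure D4:**
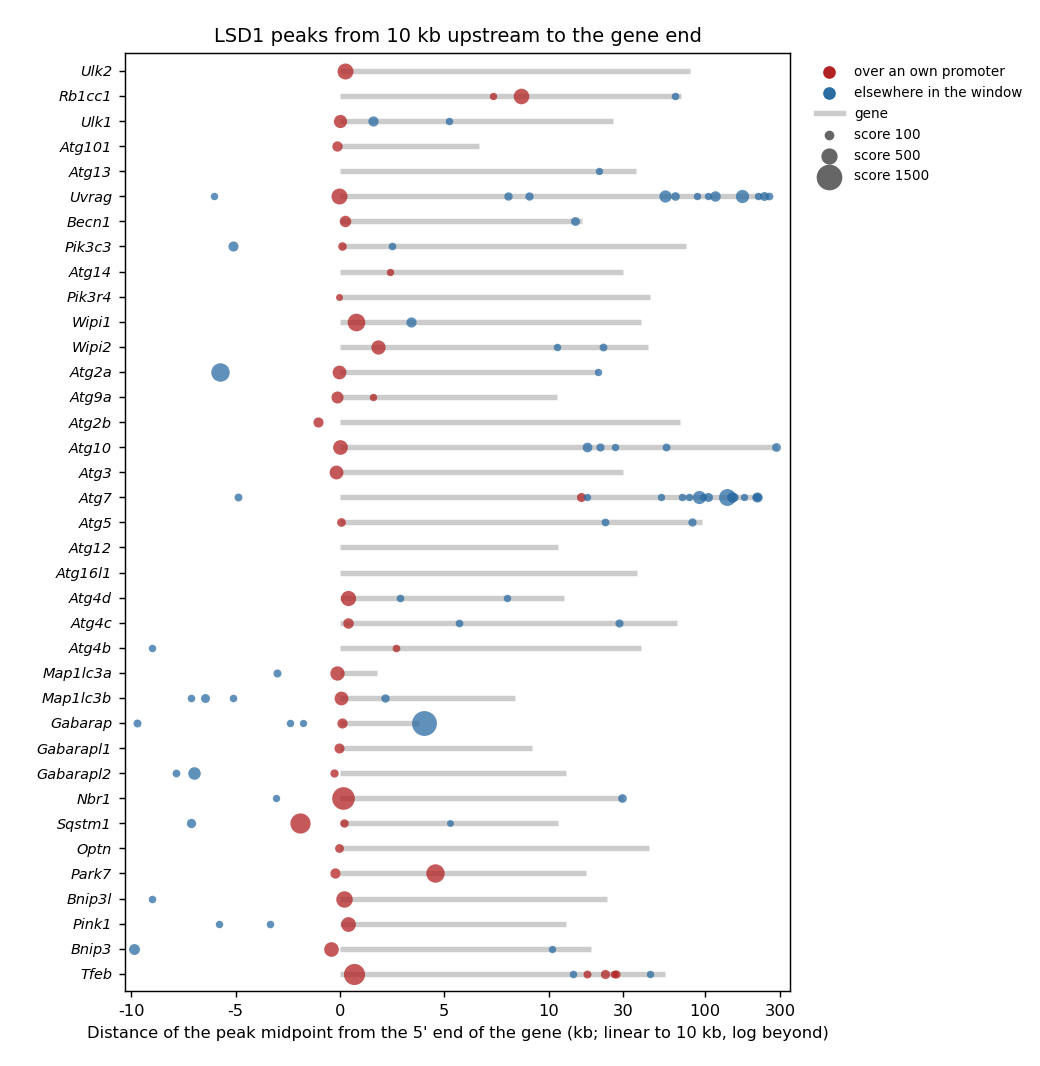
LSD1 peaks in the windows of the 37 autophagy genes by distance of the peak midpoint from the 5′ end of the gene (kb, linear to 10 kb and log beyond), with point area growing with the score, red for peaks over a promoter of the gene, blue for the others, and a grey bar for the gene. Most red points cluster at 0. Those of Rb1cc1, Atg7, Atg4b, Atg14 and Wipi2, the higher of the 2 at Park7 and 4 of the 5 at Tfeb lie inside the gene, and Atg7 and Uvrag show the long rows of blue points (17 and 13 peaks in all).

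Words of transcription factors known to act on autophagy genes were then sought at the peak centres. In 200 bases around the midpoint of the highest promoter peak, read on both strands, none of the 34 genes held the CLEAR core GTCACGTG, the word bound by TFEB, which occurs in 1.44% of all promoter peaks of the list. The E-box CACGTG, which is contained in that core, was found in 1 gene (2.94%, against 4.64% of all promoter peaks). Its inner part ACGTG, the core of the hypoxia response element, was found in 9 (26.5%, against 15.4%): Atg5, Atg9a, Atg14, Atg101, Gabarap, Wipi1, Bnip3, Park7 and Uvrag. The FOXO word GTAAACA, bound by starvation-responsive forkhead factors, was found in none (against 1.34%). At shares this low in all promoter peaks, counts of 0 or 1 among 34 genes say nothing particular about them.

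These shares moved with the width of the window. In 400 bases, a width tried for all words but the E-box after the data were seen, the CLEAR core was found in 2 genes (5.88%, against 2.67% of all promoter peaks) and the E-box in 4 (11.8%, against 8.93%), so both were below the share of all promoter peaks in 200 bases and above it in 400. The 2 genes with the CLEAR core were Atg3 and Atg10, and those with the E-box Atg3, Atg5, Atg10 and Gabarap. ACGTG was found in 17 (50%, against 28.5%), above that share in both widths, although the wider window contains the narrower one. This word holds a CpG pair, and the members' peak centres held more of these (median 15, against 13). The members also give 1 peak per gene, whereas the 14423 promoter peaks include further peaks of a gene. The part of these differences in the word shares was not tested. The FOXO word was found in 1 (2.94%, against 2.88%), Bnip3.

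Words that many promoters share were the most frequent. The SP/KLF word GGGCGG was found in 16 of the 34 genes (47.1%, against 39.4% of all promoter peaks) and the NFY word CCAAT in 10 (29.4%, against 21.2%). In 400 bases the NFY word was found in 12 (35.3%, against 36.4%), so its lead over all promoter peaks was not kept. The CRE word TGACGTCA was found in 1 (2.94%, against 1.16%) and the NRF1 word GCGCATGCG in 1 (2.94%, against 1.44%). The words of AP-1 (TGAGTCA, 2.61% of all promoter peaks), ETS factors (CCGGAAGT, 2.61%), YY1 (AAGATGGCG, 1.05%) and C/EBP factors (TTGCGCAA, 0.0763%) were found in none.

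The rarer words fell in 2 genes, shown with the match in capitals (mm10, gene strand, 30 bases each). Atg5 held an E-box in chr10:44268313-44268342 and a CRE word in chr10:44268327-44268356, both on the plus strand and just upstream of its start, and Park7 held the NRF1 word in chr4:150909849-150909878 on the minus strand, beside the internal start described above.
Atg5 E-box: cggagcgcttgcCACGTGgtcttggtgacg
Atg5 CRE: cgtggtcttggTGACGTCAtctccgggcgc
Park7 NRF1: gtgcgggtggcGCGCATGCGtgctgggtac
Atg5, with both words, had one of the lower scores at 138, and Park7 one of the highest at 865.

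Genes that work next to the 37 members showed LSD1 promoter peaks at similar or lower rates. Among other autophagosome genes 15 of 16 were occupied, with a median score of 353. The top 3 were Nrbf2 (785, a subunit of the ATG14 kinase complex), Ei24 (712) and Tmem41b (701, a lipid scramblase), and the fusion protein gene Stx17 had no peak. Among other receptors and mitophagy genes 8 of 12 were occupied (median 374), led by Calcoco1 (845, a receptor for the endoplasmic reticulum and Golgi) and Bcl2l13 (530.2, a mitophagy receptor), while the mitochondrial receptors Fundc1 and Fkbp8 had none. Lysosomal genes were occupied in 16 of 20 (median 416), with the lysosomal hydrolase genes Ctsa (909) and Ctsd (825) among the highest and no promoter peak at the membrane protein gene Lamp2.

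The genes that control autophagy through nutrients and transcription had the highest median of the lists, 599, with 13 of 18 occupied. Foxo1 (1753) and Foxo3 (910.5), forkhead factors active in fasting, and Stk11 (1143), the kinase upstream of AMPK, scored highest, and Mtor and Rptor, kinase and scaffold of mTORC1, had no promoter peak. The proteasome, the other large route of protein breakdown, was occupied in 29 of 31 genes (93.5%, beside 91.9% of the autophagy genes), with a median of 185 (beside 455). Its top 3 were Psma2 (1468), Psmc4 (815) and Psma7 (633), and Psmb7 and Psmd14 had none.

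**Figure D5:**
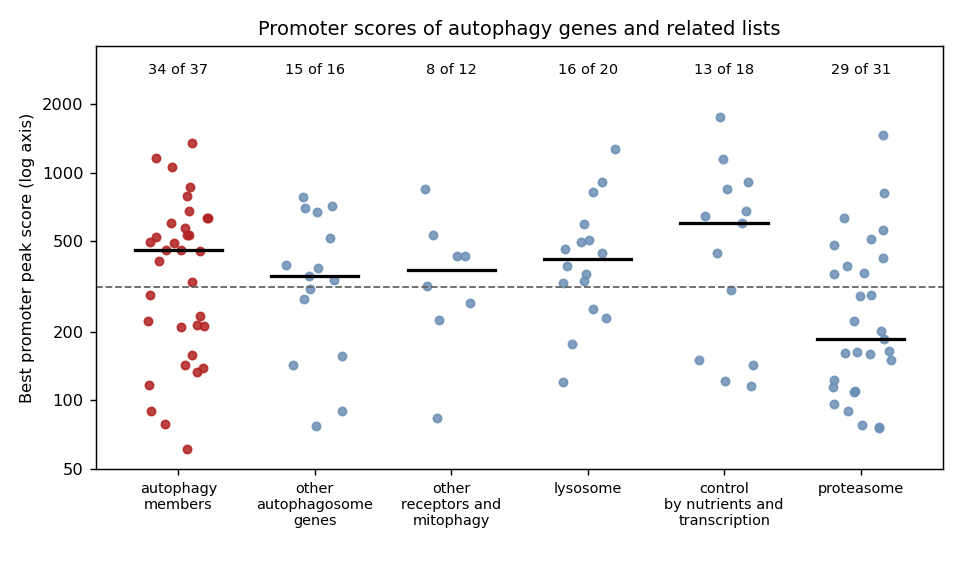
Highest LSD1 promoter score (log axis) of each occupied autophagy gene and of each occupied gene of 5 related lists, with the number occupied above, the median of each list as a bar and the median of all occupied genes (315) as a dashed line. The autophagy genes (median 455) lie between the nutrient and transcription control genes (599) and the proteasome genes (185), with much overlap.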

How the data were processed

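LSD1 chromatin immunoprecipitation and an input library were sequenced, 1 library each. Per the labels' protocols, Bowtie2 mapped the reads to mm10. MACS 1.41 stands in the submitters' processing notes. No source used here gives a threshold for peaks or says how the input entered the calling. The deposited list gives each peak a position and a score, the authors' own value. Depth is unknown. Some scores at the top of the list are tied, but none of the members lies there.

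Peaks were joined to protein-coding starts of GENCODE M21 (GRCm38, the sequence of mm10) with a minimum overlap of 1 bp, in Python 3.11.15 with numpy 2.4.6. The joins were checked on simulated intervals. Members, related lists and words were chosen with earlier results of these data known. Every member is named. Of each related list, the 3 highest-scoring genes and the first 2 without a promoter peak are named, except some that are not reported here. Sequences come from the RefSeq copy of GRCm38. They were to be taken around peak midpoints or starts. The windows were moved to the nearest 200 bases without annotated untranslated sequence after the annotation had been seen, and none was found for Nbr1. Alternatives varied promoter width, starts, overlap, score, peak sharing, upstream reach, CpG limit and motif window.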

Additional observations from a re-analysis of the deposited data

How the results depend on the processing

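With only the highest-scoring 10% of peaks, 19 genes had a promoter peak and 21 a peak from 10 kb upstream to the gene end, and the median promoter score was 569.6. Under the other alternatives 29 to 34 genes had a promoter peak and 31 to 35 a peak in the wider window. Using 1 start per gene removed Atg4b, Atg7, Atg14, Wipi2 and Rb1cc1, and a promoter of 500 bp or the midpoint rule removed Atg2b and Atg7. Peaks at or above the median score left out Atg4b, Atg14 and Pik3r4. The median promoter score was 454 with 1 start per gene and with the nearest start only, and 456 with peaks at or above the median score. The share of CpG-rich genes with a promoter peak was 84.6% at 500 bp, 87.8% at 2.5 kb, 81.3% with 1 start per gene, 84.8% with the midpoint inside, 76.3% with peaks at or above the median score, 39.8% with the highest-scoring 10% and 78.9% with the nearest start only. Under the same settings in the same order, the share of all genes was 53.7%, 59.1%, 52.3%, 54.1%, 47.3%, 22.8% and 51.4%. With a CpG ratio of at least 0.75 it was 90.0% of CpG-rich genes. In 400 bp around the midpoint, 4 genes held an E-box (11.8%, against 8.93% of all promoter peaks) and 2 the CLEAR core (5.88%, against 2.67%), both above the share of all promoter peaks and not below it as in 200 bp. No paired analysis was possible because there is 1 library and no test. The absent replicates and read counts limit every score and share to this library.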
